A study of Mus musculus with 2 samples.

Results

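Iron inside a cell is stored in ferritin, a hollow shell of heavy and light chains encoded by Fth1 and Ftl1. It enters bound to transferrin (Trf) through the transferrin receptor (Tfrc). It leaves through ferroportin (Slc40a1), the exporter that works together with ferroxidases such as ceruloplasmin (Cp), and haem oxygenase 1 (Hmox1) frees iron from haem. Macrophages are known for recycling the iron of old red cells, and cardiomyocytes for a high demand for iron in their respiratory chain. These 7 genes were taken by symbol and all 7 were found among the 32245 gene symbols of the count tables. They were chosen from measured values, since Ftl1 and Fth1 stood among the highest genes of macrophage-like nuclei in an earlier account of these libraries, so their levels there are given as a description. Ftl1 (ENSMUSG00000050708) lies at chr7:45457944-45459884 in GRCm38 and Fth1 (ENSMUSG00000024661) at chr19:9980598-9985098. Trf (ENSMUSG00000032554) lies at chr9:103204001-103230444 and Tfrc (ENSMUSG00000022797) at chr16:32608920-32632794. Slc40a1 (ENSMUSG00000025993) lies at chr1:45908068-45926523, Cp (ENSMUSG00000003617) at chr3:19957054-20009145 and Hmox1 (ENSMUSG00000005413) at chr8:75093621-75100589.

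Nuclei of mouse cardiac tissue were profiled with a 10x Genomics 3′ v3 kit, in 1 library per group. CF-KI mice carried Tcf21-MerCreMer, a tamoxifen-inducible Cre driven from the fibroblast gene Tcf21, with Nlrp3-A350V/A350V, an activating form of the inflammasome sensor NLRP3. The control had Tcf21-MerCreMer with Nlrp3-WT/WT. Both libraries came from male C57Bl6/J mice at 3.5 months of age that had tamoxifen injections, and per the series' own note the mutant allele is silent where Cre is not expressed. How many animals were pooled is not stated. With 1 library per group no test was possible: every difference is between these libraries, and every interval (95%) covers counting error only.

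The libraries held 21603653 (CF-KI) and 18040776 (control) unique molecular identifiers (UMIs, each marking 1 captured RNA molecule) in 15077 and 11257 barcodes, of which 46 barcodes occurred in both. The median mitochondrial share of UMIs per barcode was 14.2% (CF-KI) and 3.46% (control). Within each of 11 nucleus classes with at least 50 nuclei per library, RNA of ribosomal protein genes was higher in CF-KI (log2 ratio 0.40 to 1.27), as was haemoglobin RNA (0.41 to 2.23), and Malat1, a long RNA that stays in the nucleus, was lower (-1.31 to -0.040). Cardiomyocyte marker RNA inside other classes, a measure of free RNA, stood in fibroblast-like nuclei at 45.5% (CF-KI) and 22.0% (control) of its whole-library level, and in macrophage-like nuclei at 60.6% and 36.9%. Doublets were called in 15.3% of CF-KI and 3.02% of control barcodes and left out. Levels are CPM, a gene's UMIs scaled to a class total of 1000000 non-mitochondrial UMIs, with exact Poisson intervals. An airway epithelial-like cluster of 121 nuclei, with 1195 CPM of ferritin RNA and 412 CPM of Cp, occurred in the control only. Airway marker RNA was at 581 CPM (control) and 0 CPM (CF-KI) in fibroblast-like nuclei, and at 628 and 0 CPM in macrophage-like nuclei. The part of all these library differences in the results below was not tested. The ending -like marks that a class was named by marker RNA only.

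Part of the control of these genes lies in their RNA. Iron-responsive elements are hairpins with a bulged C and a CAGTGN loop that bind iron regulatory proteins when iron is low, which blocks translation from a 5′ UTR and protects the RNA from decay in a 3′ UTR. The letters CNNNNNCAGTGN, with the 5 bases on either side of the loop pairing, were searched on the sense strand in the UTRs of 1 transcript per gene (GENCODE vM21, GRCm38). They are shown because they split the members into storage and export genes with the hairpin ahead of the coding part and the uptake receptor with hairpins behind it. The loop is in capitals.
Ftl1 5′ UTR, exon 1, chr7:45459780-45459806, minus strand: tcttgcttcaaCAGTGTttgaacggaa
Fth1 5′ UTR, exon 1, chr19:9982733-9982759, plus strand: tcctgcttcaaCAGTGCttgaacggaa
Slc40a1 5′ UTR, exon 1, chr1:45925466-45925492, minus strand: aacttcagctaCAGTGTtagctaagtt
Tfrc 3′ UTR, exon 19, chr16:32631220-32631246, plus strand: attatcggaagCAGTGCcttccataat
Tfrc 3′ UTR, exon 19, chr16:32631599-32631625, plus strand: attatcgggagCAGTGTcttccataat
Tfrc 3′ UTR, exon 19, chr16:32631664-32631690, plus strand: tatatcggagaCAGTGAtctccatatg
Tfrc 3′ UTR, exon 19, chr16:32631711-32631737, plus strand: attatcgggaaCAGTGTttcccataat
The Ftl1 and Fth1 elements are equal at 25 of 27 bases, while the Slc40a1 element shares 13 of 27 with either. The 4 Tfrc elements lie within exon 19. No match was found in the UTRs of Hmox1, Trf or Cp, which says only that these letters are not there. Such a match occurred in the 5′ UTR of 0.0966% of 19664 genes and in the 3′ UTR of 0.447% of 21679 genes, over UTRs of any length. A match is a description of the sequence and not evidence of binding.

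Over each library as a whole the ferritin chains had the most UMIs of the 7 members, though not in every class. In the control, Cp had more UMIs than both chains in lymphatic endothelial-like nuclei and Trf had more than Ftl1 in mesothelial-like nuclei. Control Cp also had more UMIs than Ftl1, but fewer than Fth1, in several larger classes. These were cardiomyocyte-like (746 and 388 UMIs), fibroblast-like (2046 and 1888), endocardial-like (444 and 241) and pericyte-like nuclei (144 and 80). These are UMI counts, not scaled by transcript length. In control macrophage-like nuclei (996 nuclei) Ftl1 stood at 701 CPM and in those of CF-KI (546 nuclei) at 723 CPM. In control fibroblast-like and endothelial-like nuclei, next in order, Ftl1 was at 457 and 444 CPM. Ventricular cardiomyocyte-like nuclei had the lowest Ftl1 of the 11 classes in both libraries, at 67.5 CPM (control) and 120 CPM (CF-KI). Fth1 ordered the classes differently: in the control, B cell-like (1048 CPM), endothelial-like (943 CPM) and macrophage-like nuclei (926 CPM) could not be told apart beyond counting error. In CF-KI, macrophage-like nuclei (1143 CPM) were below B cell-like (1642 CPM), endothelial-like (1505 CPM) and fibroblast-like nuclei (1479 CPM).

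**Figure D1:**
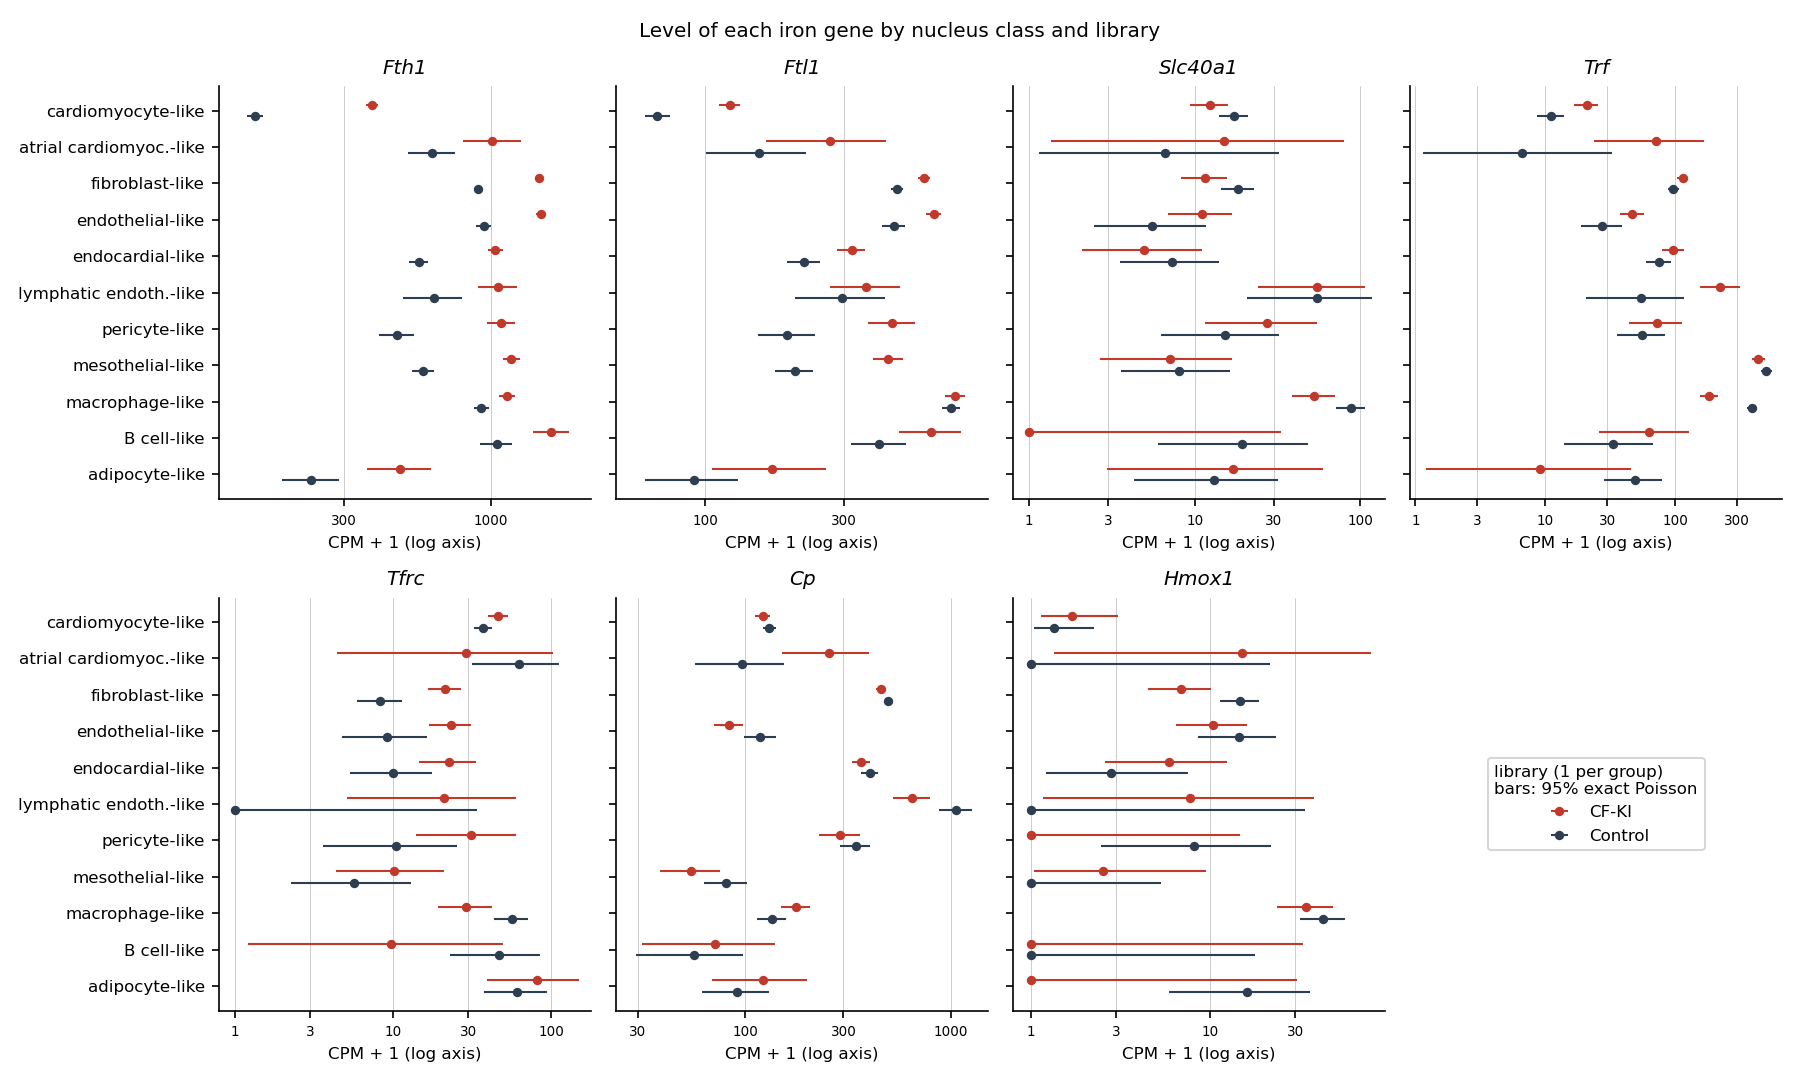
Level of each member (CPM + 1, log axis) in the 11 nucleus classes, CF-KI in red and control in dark blue, with 95% exact Poisson intervals. The ferritin chains are lowest in cardiomyocyte-like nuclei, Trf stands out in mesothelial-like and macrophage-like nuclei, and Cp in lymphatic endothelial-like nuclei.

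Barcodes outside these 11 classes held the extremes of ferritin RNA. Platelet-like barcodes, led by Ppbp, Gp9 and Pf4, had 6389 CPM of Fth1 and 1978 CPM of Ftl1 in CF-KI (95 barcodes), and a summed ferritin level of 9455 CPM in the control, from only 10 barcodes. Cardiomyocyte markers stood in them at 105% and 132% of their whole-library level, so they hold much RNA besides that of platelets. Barcodes of a cardiomyocyte-like cluster whose median mitochondrial share was over 50% (1828 in CF-KI and 239 in the control, kept apart from the classes) had 2836 and 3372 CPM of ferritin, against 498 and 211 CPM in the cardiomyocyte-like class.

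The balance of the chains differed by class. Per Ftl1 UMI there were 1.58 Fth1 UMIs (1.43 to 1.75) in CF-KI macrophage-like nuclei and 1.32 (1.2 to 1.45) in those of the control, the lowest of the 11 classes in either library. Fibroblast-like nuclei had 2.62 (CF-KI) and 1.97 (control), and cardiomyocyte-like nuclei 3.13 and 2.13. The ratio was higher in CF-KI in these 3 classes, with intervals that did not overlap for fibroblast-like and cardiomyocyte-like nuclei. Erythroid-like barcodes were on the light-chain side at 0.79 (0.65 to 0.96) among 83 CF-KI barcodes, while mitochondria-rich barcodes reached 5.44 and 7.83. These are ratios of UMIs within a library, not scaled by transcript length. Of copies near in sequence, the listed Ftl1-ps1 had 68 and 38 UMIs against 6823 and 4729 of Ftl1. How reads shared with this or with unlisted copies were counted is not given in the sources used here. The part of such reads in these ratios was not tested.

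**Figure D2:**
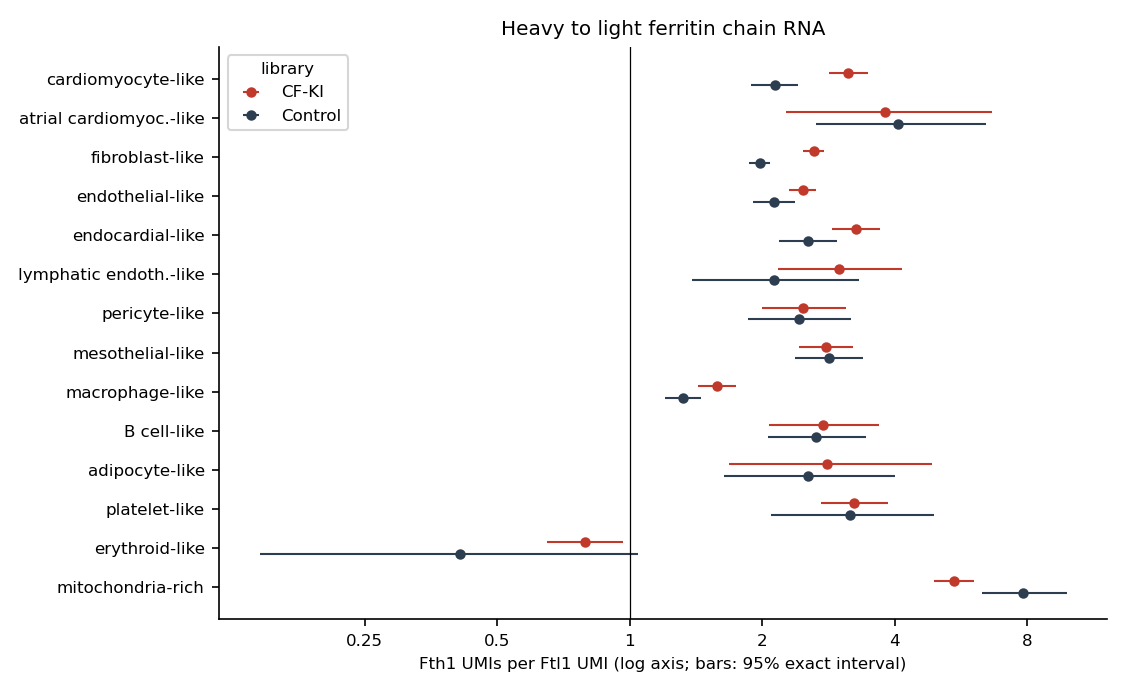
Fth1 UMIs per Ftl1 UMI (log axis) in each class and library, with 95% exact intervals. Macrophage-like nuclei sit lowest of the 11 classes at 1.58 and 1.32, erythroid-like barcodes fall below 1, and mitochondria-rich barcodes reach 5.44 and 7.83.

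Against the control, pooled Fth1 was higher in CF-KI in 11 of 11 classes beyond counting error, and pooled Ftl1 in 8 of 11. Fth1 was lower, however, in CF-KI macrophage-like nuclei at 5 to 20% mitochondrial UMIs (-0.26, -0.44 to -0.084), it was -0.60 in lymphatic endothelial-like nuclei under a limit of 5% mitochondrial UMIs, and -0.10 in adipocyte-like nuclei with free RNA subtracted. Ftl1 turned in endocardial-like nuclei (-0.60 under the 5% limit and -0.0023 with free RNA subtracted) and in adipocyte-like nuclei (-0.098 with free RNA subtracted). The values under the 5% limit rest on few CF-KI nuclei. In the main clustering, 2 lymphatic endothelial-like and 30 endocardial-like CF-KI nuclei had 1 to 5% mitochondrial UMIs. Ftl1 of those endocardial-like nuclei, with 3 CF-KI UMIs, was within counting error of the control (-0.93, -3.23 to 0.66). Above 20% mitochondrial UMIs, Fth1 was higher beyond counting error in fibroblast-like nuclei (0.39, 0.049 to 0.74). Atrial cardiomyocyte-like nuclei in that range (33 and 20 nuclei) were within counting error (0.0087, -0.71 to 0.76). So were endocardial-like (0.42), endothelial-like (-0.12), mesothelial-like (-0.067), macrophage-like (-0.061) and B cell-like nuclei (-0.14).

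Many genes were called by the same rule. Of all genes with at least 20 UMIs, the shares whose interval lay above and below 0 were 25.7% and 11.8% in cardiomyocyte-like, 15.9% and 17% in fibroblast-like, 8.8% and 13.7% in endothelial-like, and 12.8% and 12.9% in macrophage-like nuclei. They were 12.1% and 11% in endocardial-like, 9.4% and 6.87% in lymphatic endothelial-like, 16.6% and 7.02% in pericyte-like, and 12.2% and 8.37% in mesothelial-like nuclei. In the 3 smallest classes they were 19.9% and 6.16% (atrial cardiomyocyte-like), 9.81% and 11.3% (B cell-like) and 10.1% and 6.57% (adipocyte-like).

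Summed ferritin (Fth1 plus Ftl1) in cardiomyocyte-like nuclei was 498 CPM (CF-KI) against 211 CPM (control), a log2 ratio of 1.24 (1.13 to 1.34). Fibroblast-like nuclei had 2044 and 1357 CPM (0.59, 0.54 to 0.64), and endothelial-like nuclei 2114 and 1386 CPM (0.61, 0.52 to 0.70). Pooled macrophage-like nuclei had 1866 and 1627 CPM (0.20, 0.10 to 0.29), a ratio that was 0.69 under the 5% limit and -0.34 at 5 to 20% mitochondrial UMIs, and their Ftl1 alone did not differ beyond counting error (0.05, -0.11 to 0.20). Ribosomal protein RNA moved beside ferritin, with log2 ratios of 1.27, 0.43, 0.40 and 0.43 in these 4 classes. Ferritin relative to ribosomal protein RNA was thus -0.030 in cardiomyocyte-like nuclei, 0.16 in fibroblast-like, 0.21 in endothelial-like and -0.23 in macrophage-like nuclei.

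Most fibroblast-like nuclei came from different clusters in the libraries. A cluster led by Dnm3os, Msc and Gpc6 held 2585 CF-KI and 110 control nuclei, a cluster led by Rgs17, Dnm3os and Msc held 100 and 1869, and a cluster led by Cilp, Pi16 and Gsn held 983 and 1589. Ferritin was 1637 and 1155 CPM in the first, 1573 and 741 CPM in the second and 2675 and 1771 CPM in the third, higher in CF-KI in each. The rule that names clusters was changed after the clusters had been seen: under its first version the cluster with 2585 CF-KI nuclei had no name, and the fibroblast-like ratio was 0.93. Under the second version an endothelial cluster led by Rgs5, Cxcl12 and Depp1 (894 and 390 nuclei) had no name, and the endothelial-like ratio was 1.14. Ferritin was 2229 (CF-KI) and 1727 CPM (control) in that cluster. It was 1720 and 782 CPM in the other endothelial-like cluster (605 and 526 nuclei). Rgs5 is on the pericyte list, whose markers summed to 4424 (CF-KI) and 2935 CPM (control) in endothelial-like nuclei. The cardiomyocyte-like ratio was 0.51 when each library was clustered on its own, where 299 control nuclei with a median mitochondrial share of 43.5% entered the class and 1803 such CF-KI barcodes, at 66.0%, were over the limit of 50%.

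**Figure D3:**
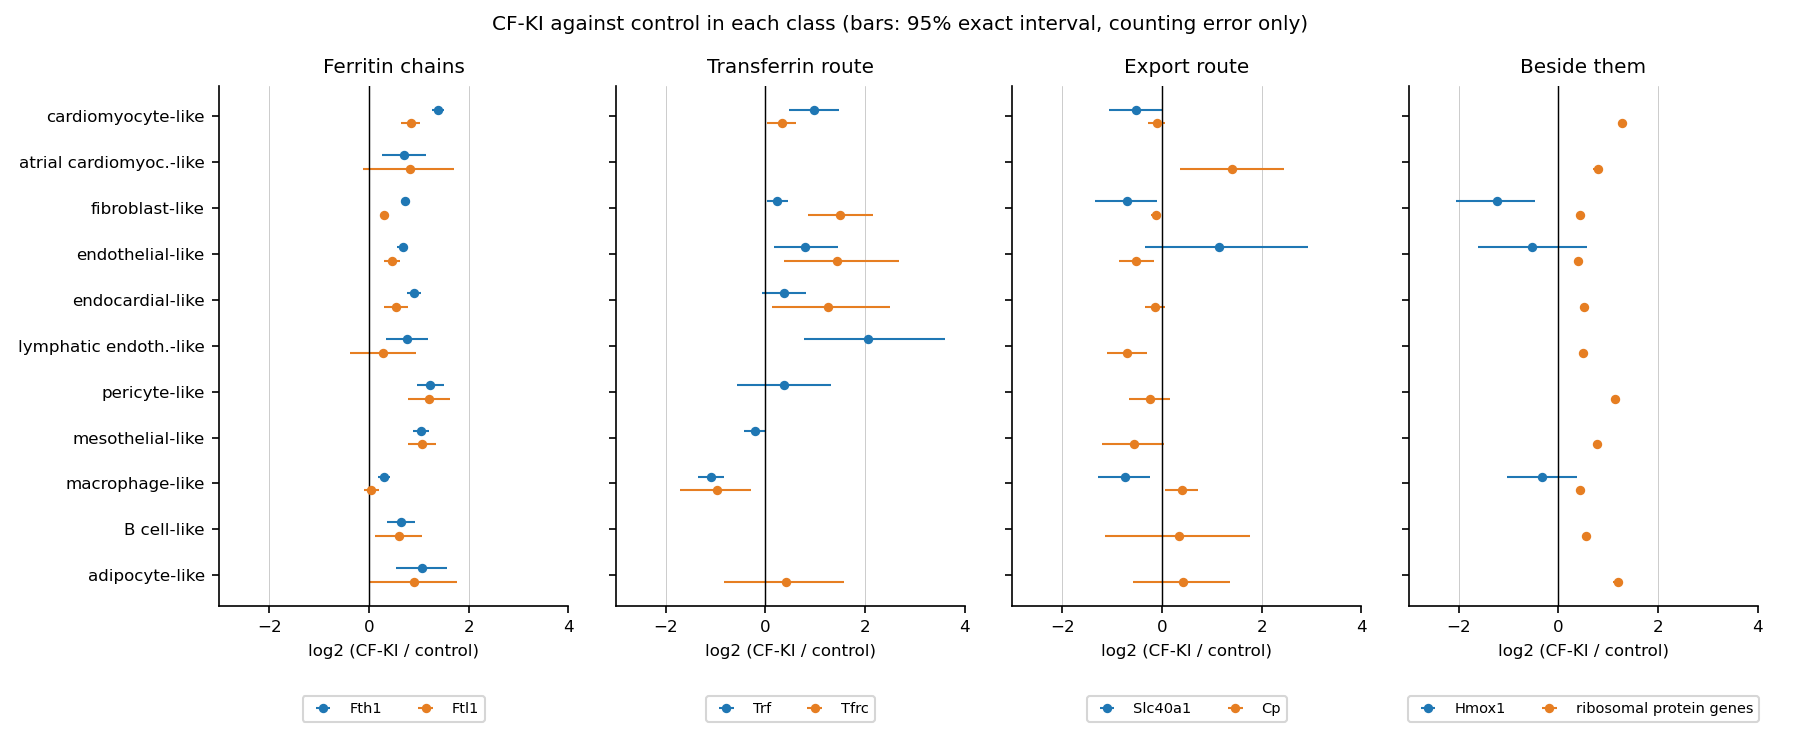
Log2 ratio of CF-KI over control in each class for each member whose UMIs of both libraries sum to 20 or more, with 95% exact intervals, beside ribosomal protein genes. Fth1 lies right of 0 in all 11 classes, and Trf and Tfrc lie left of 0 in macrophage-like nuclei at -1.09 and -0.98.

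Ferritin RNA of cardiomyocyte-like nuclei was higher where the mitochondrial share was higher. In the control it was 186 CPM at a mitochondrial share of at most 1%, 308 CPM at 1 to 5%, 510 CPM at 5 to 20% and 1078 CPM above. Within these ranges CF-KI cardiomyocyte-like nuclei had 358, 450 and 675 CPM in the first 3. Above 20% they had 730 CPM, lower than the control's 1078 CPM, from 19 and 21 nuclei with 24 and 47 UMIs. CF-KI was higher beyond counting error in the first (0.95, 0.64 to 1.25) and the second range (0.55, 0.33 to 0.77), but not at 5 to 20% (0.40, -0.0079 to 0.84), where the control had 39 nuclei. The chains differed in the lowest range: Fth1 was 291 CPM (CF-KI) against 121 CPM (control), whereas Ftl1 was 67.4 against 65.1 CPM (0.05, -0.70 to 0.72). Fibroblast-like nuclei at 5 to 20%, with 2671 and 2047 nuclei, had 2088 CPM (CF-KI) against 1595 CPM (control), which is 0.39 (0.33 to 0.45) on the log2 scale. Endothelial-like nuclei were higher in CF-KI at 1 to 5% (0.53, 0.35 to 0.71) and at 5 to 20% (0.59, 0.45 to 0.73). Above 20%, with 240 and 31 nuclei, they did not differ beyond counting error (-0.043, -0.40 to 0.33).

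In macrophage-like nuclei the direction depended on the range. At 1 to 5% mitochondrial UMIs ferritin was 2936 CPM in 37 CF-KI nuclei and 1598 CPM in 473 control nuclei. At 5 to 20%, with 373 and 342 nuclei, it was 1577 and 2000 CPM, lower in CF-KI (log2 ratio -0.34, -0.48 to -0.20). Above 20% it was 2268 and 3008 CPM. The light chain showed the widest swing, with Ftl1 at 1500 and 727 CPM at 1 to 5%, 597 and 824 CPM at 5 to 20%, and 600.0 and 1268 CPM above. Depth split the class too: CF-KI was higher among nuclei with 500 to 1000 non-mitochondrial UMIs (2296 and 1449 CPM) and lower among those with at least 2000 UMIs (1696 and 2196 CPM, log2 ratio -0.37, -0.52 to -0.22). The pooled ratio of 0.20 was 0.69 under a limit of 5% mitochondrial UMIs and 0.49 after each nucleus was thinned to 500 UMIs. No single direction of ferritin in macrophage-like nuclei therefore holds over these ranges.

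**Figure D4:**
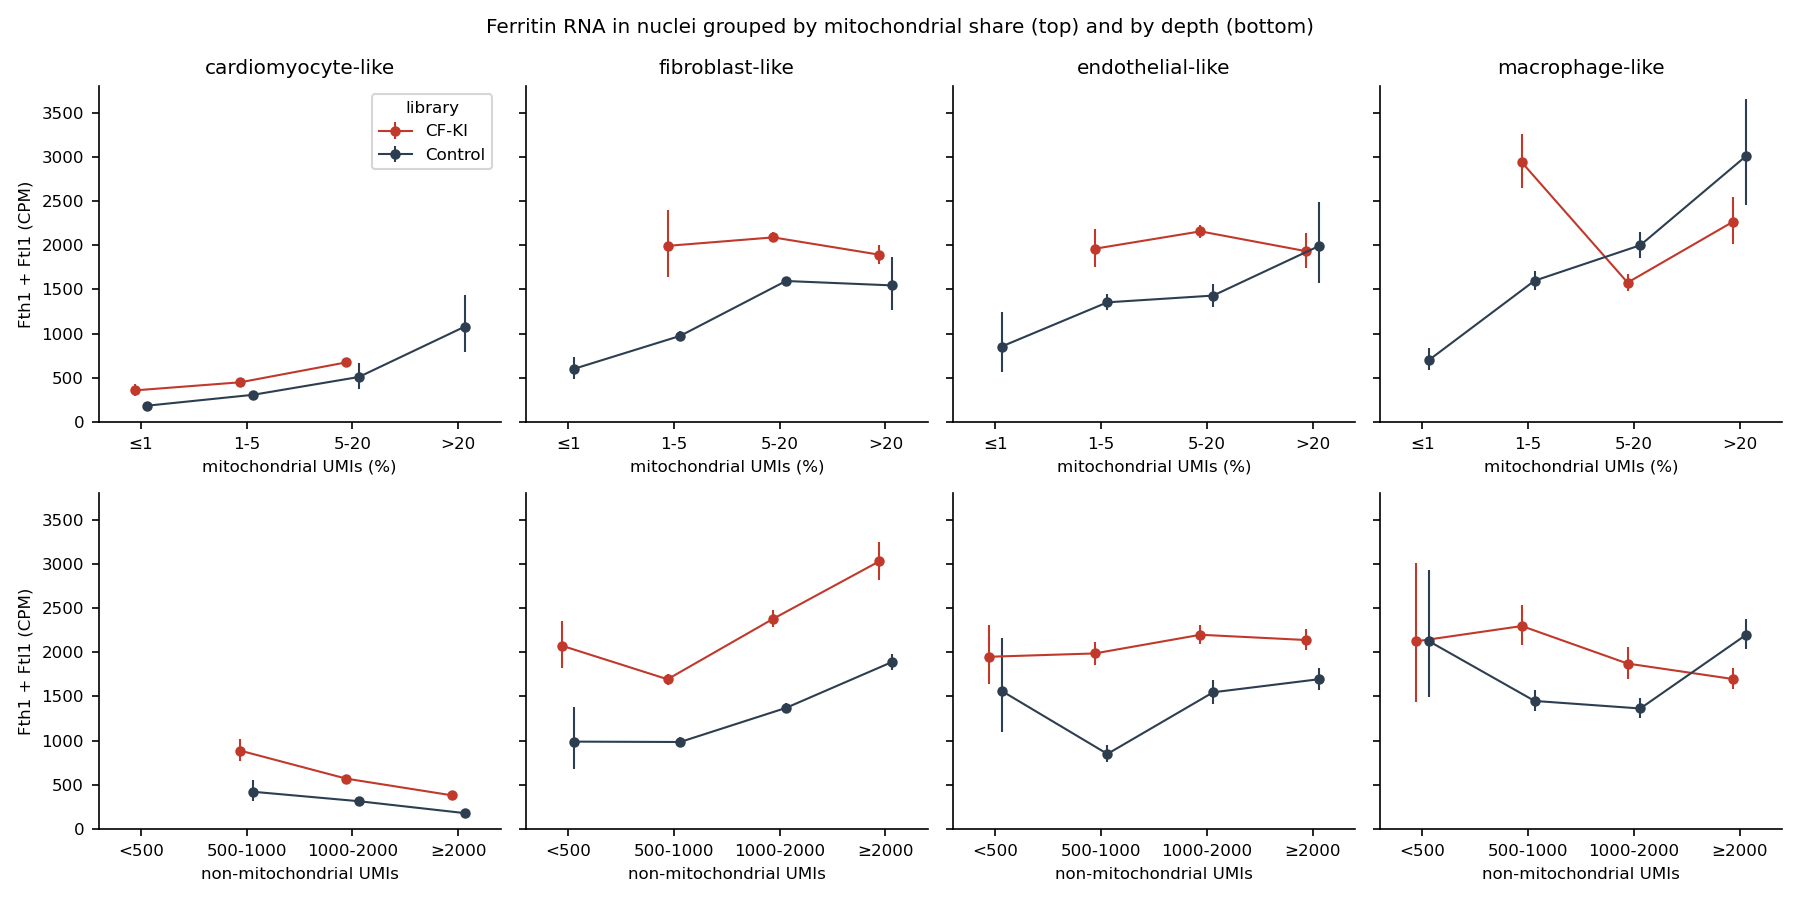
Summed Fth1 and Ftl1 (CPM) in nuclei grouped by mitochondrial share (top) and by non-mitochondrial UMIs (bottom), for groups of at least 20 nuclei, with 95% exact Poisson intervals. Where both libraries have a point, CF-KI lies above the control in cardiomyocyte-like and fibroblast-like nuclei, while the lines cross in macrophage-like nuclei. CF-KI cardiomyocyte-like nuclei above 20% mitochondrial UMIs (19 nuclei) have no point, and were lower at 730 against 1078 CPM.

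Transferrin, the carrier of iron in plasma, was highest in mesothelial-like nuclei, the cover of the heart, at 435 CPM in 557 CF-KI nuclei and 502 CPM in 666 control nuclei. Control macrophage-like nuclei followed at 388 CPM. In CF-KI macrophage-like nuclei Trf was 182 CPM, a log2 ratio of -1.09 (-1.36 to -0.83). It was lower in CF-KI macrophage-like nuclei in each mitochondrial range measured: 105 and 299 CPM at 1 to 5%, 172 and 611 CPM at 5 to 20%, and 304 and 678 CPM above 20%. After subtraction of free RNA the ratio was -0.78. Within the same nuclei the 8 macrophage markers summed to 3601 CPM (CF-KI) against 7652 CPM (control), all 8 with UMIs in both libraries, and 6 neutrophil markers to 377 and 39 CPM, of which 5 and 4 had a UMI. The part of these in the lower Trf was not tested.

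Of the other 7 classes with at least 20 Trf UMIs, 4 were higher in CF-KI beyond counting error when pooled and none was lower. Mesothelial-like nuclei did not differ beyond counting error (-0.21, -0.43 to 0.014). At 5 to 20% mitochondrial UMIs, however, they had 355 against 714 CPM (-1.01, -1.31 to -0.70), while at 1 to 5% they had 496 against 408 CPM (0.28, -0.21 to 0.76). Fibroblast-like nuclei had 113 and 95.6 CPM (0.24, 0.031 to 0.45) pooled, 111 and 112 CPM at 5 to 20%, and 201 and 72.2 CPM at 1 to 5% (1.48, 0.43 to 2.38), where CF-KI had 11 UMIs. Cardiomyocyte-like nuclei had 19.8 and 10.1 CPM (0.97, 0.47 to 1.48), from 84 and 58 UMIs, but 18.6 and 16.0 CPM at 1 to 5% (0.22, -0.76 to 1.36) and only 0 and 46 UMIs at a share of at most 1%. Endothelial-like nuclei had 45.6 and 26.4 CPM (0.79, 0.16 to 1.45), and -0.77 under the limit of 5% mitochondrial UMIs. Lymphatic endothelial-like nuclei had 222 against 53.5 CPM (2.05, 0.78 to 3.60), which rests on 33 and 6 UMIs.

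**Figure D5:**
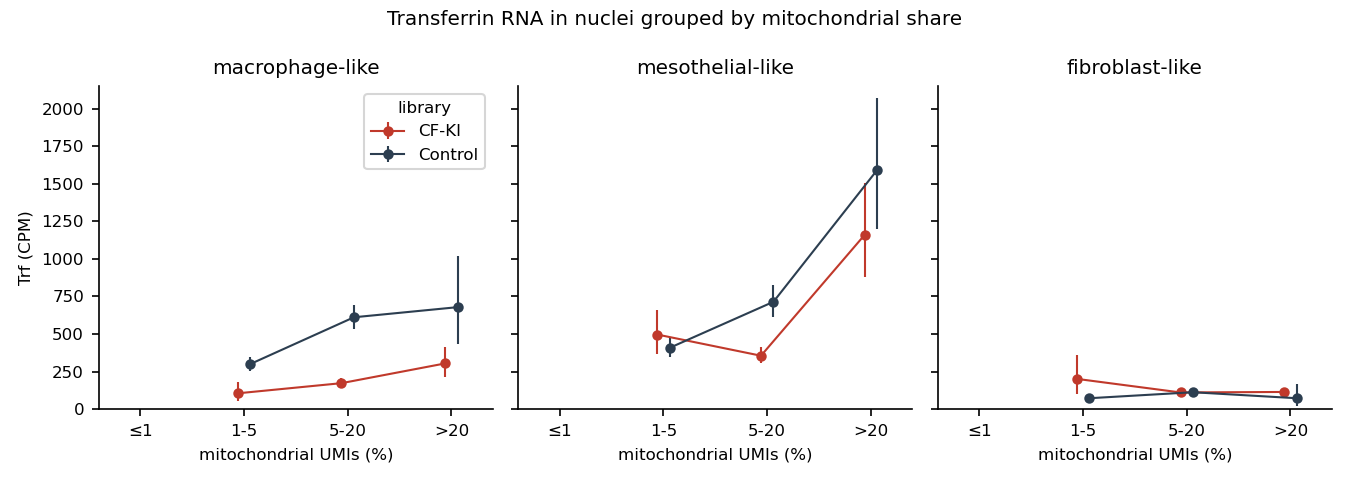
Trf (CPM) in macrophage-like, mesothelial-like and fibroblast-like nuclei grouped by mitochondrial share, with 95% exact Poisson intervals. In macrophage-like nuclei CF-KI lies below the control in the 3 ranges measured (172 and 611 CPM at 5 to 20%).

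Tfrc, the receptor that takes transferrin up, was higher in CF-KI in 4 of the 6 classes with at least 20 UMIs and lower in 1. In cardiomyocyte-like nuclei it was 45.4 CPM (CF-KI) against 36.2 CPM (control) (0.33, 0.038 to 0.62), and 40.3 and 39.9 CPM at 1 to 5% mitochondrial UMIs. In fibroblast-like nuclei it was 20.4 and 7.26 CPM (1.49, 0.85 to 2.17), from 66 and 30 UMIs. In endothelial-like nuclei it was 22.2 and 8.18 CPM (1.44, 0.38 to 2.67), from 40 and 9 UMIs, and the ratio was -0.093 under the limit of 5% mitochondrial UMIs. Endocardial-like nuclei had 21.7 and 9.03 CPM (1.26, 0.12 to 2.50), so CF-KI was higher there too. Under the first naming rule the fibroblast-like ratio was 0.62 (-0.39 to 1.56). By fibroblast-like cluster, Tfrc was 27.3 (CF-KI) and 10.8 CPM (control) where there were 2585 and 110 nuclei, from 51 and 1 UMIs. It was 10.2 and 7.40 CPM in the cluster with 983 and 1589 nuclei, from 13 and 18 UMIs. In the cluster with 100 and 1869 nuclei it was 22.5 and 6.84 CPM, from 2 and 11 UMIs. In macrophage-like nuclei the control was higher, with 28.1 against 55.3 CPM (-0.98, -1.71 to -0.29), but within counting error at 5 to 20% mitochondrial UMIs (-0.86, -1.91 to 0.18). Tfrc was highest in adipocyte-like nuclei of CF-KI (80.6 CPM, 10 UMIs) and in atrial cardiomyocyte-like (61.8 CPM, 11 UMIs), adipocyte-like (60.2 CPM) and macrophage-like nuclei of the control, and each did not differ from the next class in order beyond counting error. Cardiomyocyte marker RNA in fibroblast-like nuclei was 13370 CPM (CF-KI) against 4596 CPM (control), in endothelial-like nuclei 13311 and 7803 CPM, and in endocardial-like nuclei 17414 and 6132 CPM. The part of this free RNA in the higher Tfrc of those classes was not tested.

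Ferroportin RNA was sparse and highest in macrophage-like and lymphatic endothelial-like nuclei. In macrophage-like nuclei Slc40a1 was 51.7 CPM (CF-KI) against 86.9 CPM (control) (-0.75, -1.29 to -0.23), with 46 and 99 UMIs. At 5 to 20% mitochondrial UMIs it was 59.6 and 61.9 CPM, so the libraries did not differ beyond counting error in that range. At 1 to 5% it was 32.3 and 88.9 CPM, lower in CF-KI (-1.46, -3.39 to -0.014), from only 4 and 49 UMIs. Lymphatic endothelial-like nuclei had 53.8 and 53.5 CPM, from 8 and 6 UMIs. Fibroblast-like nuclei had 10.5 and 17.2 CPM (-0.71, -1.34 to -0.099), and cardiomyocyte-like nuclei 11.3 and 16.2 CPM (-0.52, -1.05 to -0.00091). Of the 4 classes with at least 20 UMIs, 3 were lower in CF-KI beyond counting error when pooled. Endothelial-like nuclei (18 and 5 UMIs) were not lower (1.14, -0.34 to 2.92). Fibroblast-like nuclei at 5 to 20% mitochondrial UMIs were within counting error (-0.58, -1.37 to 0.18). So were cardiomyocyte-like nuclei at 1 to 5% (-0.43, -1.48 to 0.75) and at most 1% (-0.63, -2.94 to 0.97). With free RNA subtracted the macrophage-like ratio was -0.19.

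Ceruloplasmin, the ferroxidase, was highest in lymphatic endothelial-like nuclei, with 645 CPM (CF-KI) against 1053 CPM (control) (-0.71, -1.11 to -0.31). At 5 to 20% mitochondrial UMIs these were 633 and 759 CPM, a difference within counting error. Fibroblast-like nuclei followed with 456 and 495 CPM (-0.12, -0.22 to -0.021). At 5 to 20% mitochondrial UMIs it was within counting error (-0.11, -0.23 to 0.0033), and it turned to 0.21 when free RNA was subtracted and to 0.10 under the first naming rule. Endothelial-like nuclei had 82.3 and 117 CPM (-0.51, -0.86 to -0.16). Their cluster with 894 and 390 nuclei had 53.1 (CF-KI) and 78.2 CPM (control), and the other, with 605 and 526 nuclei, 182 and 187 CPM. The part of this cluster mix in the pooled ratio was not tested. Endocardial-like nuclei did not differ beyond counting error when pooled (-0.14, -0.34 to 0.064). At 5 to 20% mitochondrial UMIs, however, they were higher in CF-KI (0.32, 0.031 to 0.62). Cardiomyocyte-like nuclei did not differ when pooled (-0.11, -0.27 to 0.057) but were lower in CF-KI at 1 to 5% (-0.48, -0.81 to -0.14). Pooled, Cp was higher in CF-KI beyond counting error in 2 classes. In atrial cardiomyocyte-like nuclei it was 253 against 95.6 CPM (1.41, 0.37 to 2.45), from 18 and 17 UMIs. In macrophage-like nuclei it was higher with 175 and 133 CPM (0.39, 0.062 to 0.73), with a wider gap at 5 to 20% (191 and 99.6 CPM), and it was -0.15 under the limit of 5% mitochondrial UMIs.

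Hmox1, which opens the haem ring, was highest in macrophage-like nuclei, in the control beyond counting error. It was 33.7 CPM (CF-KI) against 42.1 CPM (control) there (-0.32, -1.03 to 0.37), a difference within counting error. Fibroblast-like nuclei had 5.88 and 13.8 CPM (-1.23, -2.06 to -0.46), from 19 and 57 UMIs, and 6.86 and 17.5 CPM at 5 to 20% mitochondrial UMIs. Of the control's 57 UMIs, 47 lay in the cluster led by Cilp, Pi16 and Gsn. In cardiomyocyte-like nuclei there were 3 and 2 UMIs in all, at the level of 3 UMIs that serves as the detection floor.

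Single members passed a fold of 2 in most classes. The share of all genes with at least 20 UMIs that were at least 2-fold higher or lower in CF-KI was 9.49% and 2.01% in cardiomyocyte-like, 5.25% and 2.61% in fibroblast-like, 2.59% and 3.77% in endothelial-like, and 6.04% and 4.82% in macrophage-like nuclei. It was 6.27% and 3.16% in endocardial-like, 12.9% and 4.71% in pericyte-like, and 6.27% and 3.62% in mesothelial-like nuclei. In atrial cardiomyocyte-like nuclei it was 17.8% and 8.04%, in lymphatic endothelial-like 9% and 5.49%, in B cell-like 7.05% and 13%, and in adipocyte-like nuclei 9.63% and 7.89%. Of the members with 20 UMIs, 1 of 6 was past it in cardiomyocyte-like nuclei (Fth1, higher), 2 of 7 in fibroblast-like nuclei (Tfrc higher, Hmox1 lower), 2 of 7 in endothelial-like nuclei (Tfrc and Slc40a1, higher) and 1 of 7 in macrophage-like nuclei (Trf, lower). In endocardial-like nuclei it was 1 of 5 (Tfrc), and in pericyte-like and mesothelial-like nuclei 2 of 4 each (Fth1 and Ftl1). It was 1 of 3 in atrial cardiomyocyte-like (Cp), 1 of 4 in lymphatic endothelial-like (Trf), 1 of 4 in adipocyte-like (Fth1) and 0 of 3 in B cell-like nuclei, all higher. With so few members these counts are given as a description.

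Fth1 and Ftl1 followed each other across the 22 points of 11 classes and 2 libraries (Pearson r of log2(CPM + 1) 0.92). Both also followed the mitochondrial share of the points (0.70 for Fth1 and 0.53 for Ftl1). Genes most like Ftl1 beside Fth1 were Rap1b and Cdc42 (0.90 each), and those most like Fth1 were Cul3 and Rnasek (0.95 each). For Slc40a1 they were the macrophage mannose receptor Mrc1 (0.80), Trim41 (0.80) and Pla2g15 (0.78), and for Hmox1 Tbc1d22a (0.74), Psap (0.72) and Ssh2 (0.72). For Tfrc they were the hexokinase Hk2 (0.90), Coq10a (0.84) and Jarid2 (0.82), for Trf Arsb (0.91), Hnrnpa3 (0.90) and Siae (0.89), and for Cp Tmod2 (0.85), Klc1 (0.84) and Prrt1 (0.83). The points share libraries, free RNA and depth, and were not tested.

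A wider list of 63 iron and haem genes gave the surroundings of the members. In macrophage-like nuclei 45 had at least 20 UMIs, with a median log2 ratio of -0.24 against -0.014 over all genes, and 5 were higher and 8 lower beyond counting error, where 12.8% and 12.9% of all genes were. Of 4 genes at least 2-fold lower, the haemoglobin scavenger receptor Cd163 was lowest at 303 and 825 CPM (-1.44, -1.64 to -1.25), and Ppox, an enzyme of haem synthesis, was another (-1.13, -1.94 to -0.37). Of the 5 measured genes of haem uptake, export and breakdown, Blvra and Blvrb, which reduce the biliverdin made by haem oxygenase, were lower too, at -0.80 and -0.65. The metalloreductase Steap4 was highest at 28.1 and 7.02 CPM (0.81 to 3.36 on the log2 scale, from 25 and 8 UMIs), followed by Urod (1.25, -0.18 to 2.82) and the iron-sulfur cluster gene Isca1 (0.88). Cd163 is also 1 of the leading genes of this cluster and 1 of the 8 macrophage markers in the list that named it. Those 8 markers, Cd163 among them, summed to 3601 CPM (CF-KI) against 7652 CPM (control) in these nuclei. The part of this class-wide difference in the lower Cd163 was not tested.

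In cardiomyocyte-like nuclei 51 of the 63 had at least 20 UMIs, 17 were higher and 5 lower (25.7% and 11.8% of all genes), and the median was 0.24 against 0.15 over all genes. The highest were the metal importer Slc39a8 (1.76, from 20 and 8 UMIs), the hepcidin inducer Bmp6 (1.54) and haptoglobin Hp (1.11). Gpx4, which reduces lipid peroxides, was 120 and 56.7 CPM (1.08, 0.87 to 1.28), and Alas1, the first enzyme of haem synthesis, 92.2 and 53.2 CPM (0.79, 0.57 to 1.01). The lowest were Cd163 (-0.93, -2.03 to 0.068), Ppox (-0.61) and the mitochondrial iron importer Slc25a28 (-0.50). Of the 10 genes of mitochondrial iron and iron-sulfur clusters, all with at least 20 UMIs, 5 were higher and 2 lower beyond counting error. Iscu was at 0.90 and Glrx5 at 0.74.

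In fibroblast-like nuclei 53 had at least 20 UMIs, 11 were higher and 3 lower (15.9% and 17% of all genes), and the median was 0.18 against -0.022 over all genes. The BMP co-receptor Hjv was highest at 21.0 and 6.77 CPM (1.63, 0.98 to 2.32), before the haem synthesis gene Alad (1.03) and the haem exporter Flvcr1 (0.92). Uros (-0.95, -2.0 to 0.025), Cd163 (-0.84, -1.76 to 0.012) and Ppox (-0.68) were lowest. Hjv was also highest in endothelial-like nuclei (1.48, from 41 and 9 UMIs) and endocardial-like nuclei (2.52, from 21 and 4 UMIs), and lower in CF-KI in cardiomyocyte-like nuclei at 37.2 and 48.9 CPM (-0.39, -0.69 to -0.11). Cardiomyocyte marker RNA, given with Tfrc above, was also higher in CF-KI in these 3 non-cardiomyocyte classes, and its part in Hjv was not tested.

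In endothelial-like nuclei 3 of 47 were higher and 3 lower beyond counting error (8.8% and 13.7% of all genes), with Steap3 (1.15, -0.016 to 2.49) after Hjv, and Hfe (-0.65), Ppox (-0.64, -1.62 to 0.35) and the iron regulatory protein gene Ireb2 (-0.62) lowest. Ireb2 was lower in macrophage-like nuclei too (-0.68), and in endocardial-like nuclei (-0.62), where Gclc (-0.72) and Slc11a2 (-0.61, -1.99 to 0.67) were the other lowest and Steap4 (1.40) was among the highest. In mesothelial-like nuclei Aco1 (1.80), Gpx4 (1.22) and Alas1 (1.09) were highest and Blvra (-1.08), Gclc (-0.81, -2.05 to 0.32) and Slc25a28 (-0.64, -1.43 to 0.11) lowest. In pericyte-like nuclei Iscu (1.28), Txnrd1 (1.04, -0.087 to 2.20) and Gpx4 (1.02) were highest, and the lowest, Ppox, Fech and Nfs1, had intervals that held 0.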

How the data were processed

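Each library's deposited files are a matrix of unnormalized UMI counts, made by the authors with Cell Ranger 6.1.1 on mm10 per the submitters' processing notes. Cell calling settings are not given in the sources used here. Features that share a symbol were summed. Barcodes with at least 200 genes were kept, Scrublet doublets (scanpy 1.11.5) were removed, and the nuclei of both were clustered jointly (2000 variable genes, without the members, the 63 further iron genes below or ribosomal protein genes, 30 components and 15 neighbours, leidenalg 0.10.2 at resolution 0.8). No mitochondrial limit was set, since a limit of 5% keeps 15.1% of CF-KI and 60.9% of control barcodes.

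Clusters were named from 19 marker lists, by the highest mean log2 fold over the other clusters' median, with 3 or more markers raised. No name was given where another list had more of the 10 leading genes, or where 2 unrelated lists were mostly raised and each exceeded 50% of the best list's mean log2 fold. This rule is the third of 3 versions: the first compared with all other nuclei and left a large CF-KI cluster without a name, and the second counted every other list and left an endothelial and the platelet cluster without one. It was settled after the clusters' names had been seen and before the members' values in these classes had been looked at, and the earlier versions are recomputed below as alternatives.

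Members, marker lists and the 63 further genes were chosen with earlier results of these data known. Named from the 63 are the 3 highest and 3 lowest log2 ratios per class among genes with at least 20 UMIs, and others named beside them were chosen after their values were seen. Some genes that this rule picks are not reported here. Each member's 3 most similar genes come from 10908 genes with at least 200 UMIs. Log2 ratios have conditional exact binomial intervals, and counts past a fold of 2 use ratios with 0.5 UMIs added. The intervals were tested on simulated data. Alternative scalings used edgeR 4.0.16 (TMM) and DESeq2 1.42.0 (median of ratios). Splits by depth, and of single members by mitochondrial share, were added after seeing the data. Median depth was 1115 and 1158 UMIs per barcode.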

Additional observations from a re-analysis of the deposited data

Results flagged for a closer look

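For 3 members the log2 ratio of CF-KI over control had opposite signs in different classes, each with a counting interval that excludes 0. The difference between the classes was not tested, since there is 1 library per group. Tfrc was higher in CF-KI in fibroblast-like (1.49), endothelial-like (1.44) and cardiomyocyte-like nuclei (0.33) and lower in macrophage-like nuclei (-0.98). Trf was higher in cardiomyocyte-like (0.97), endothelial-like (0.79) and fibroblast-like nuclei (0.24) and lower in macrophage-like nuclei (-1.09). Cp was higher in macrophage-like nuclei (0.39) and lower in endothelial-like (-0.51) and fibroblast-like nuclei (-0.12). Within single mitochondrial ranges several lay within counting error. Trf was 0.22 (-0.76 to 1.36) in cardiomyocyte-like nuclei at 1 to 5%. At 5 to 20% it was -0.019 (-0.26 to 0.22) in fibroblast-like and 0.54 (-0.35 to 1.56) in endothelial-like nuclei. Tfrc was 0.013 (-0.62 to 0.70) in cardiomyocyte-like nuclei at 1 to 5% and -0.86 (-1.91 to 0.18) in macrophage-like nuclei at 5 to 20%. Trf in macrophage-like nuclei stayed lower in each range measured. Of the 66 CF-KI Tfrc UMIs in fibroblast-like nuclei, 51 lay in a cluster with 2585 CF-KI and 110 control nuclei. Under the first naming rule, which left that cluster without a name, the fibroblast-like Tfrc ratio was within counting error. In the cluster with 983 and 1589 nuclei Tfrc was 10.2 (CF-KI) and 7.40 CPM (control), from 13 and 18 UMIs. Some of the pooled ratios turned with the processing. Under a limit of 5% mitochondrial UMIs Tfrc (-0.093) and Trf (-0.77) in endothelial-like and Cp in macrophage-like nuclei (-0.15) were lower, and Cp in fibroblast-like nuclei was 0.21 with free RNA subtracted and 0.10 under the first naming rule. For Cp, the macrophage-like class and the fibroblast-like class, on opposite sides, thus both turn. Cp was also higher in atrial cardiomyocyte-like nuclei (1.41, from 18 and 17 UMIs). In endothelial-like nuclei Cp was 53.1 (CF-KI) and 78.2 CPM (control) in 1 cluster, but 182 and 187 CPM in the other.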

How the results depend on the processing

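The 4 ferritin ratios were recomputed under 11 other settings and, added after seeing the clusters, the 2 earlier naming rules. They stayed above 0 in all 51 combinations that gave a value. In macrophage-like nuclei the ratio of 0.20 was 0.69 at a limit of 5% mitochondrial UMIs and 0.49 after thinning. In fibroblast-like nuclei 0.59 was 0.71 at the 5% limit, 0.66 after thinning, 0.74 with free RNA subtracted and 0.93 under the first naming rule. In cardiomyocyte-like nuclei 1.24 was 0.51 with separate clustering, 1.09 with TMM, 1.05 with median-of-ratios scaling, 0.93 with free RNA subtracted and 1.47 with mitochondria-rich clusters kept. In endothelial-like nuclei 0.61 was 0.41 at the 5% limit, 0.48 with at least 500 genes, 0.35 with doublets kept, 0.71 with TMM, 0.72 with median-of-ratios scaling, 0.83 after thinning and 1.14 under the second naming rule. The cause was not tested, apart from the naming rules and the separate clustering, which change the clusters in the class. Of 675 member combinations 587 stayed within the main interval, 78 moved and 10 turned. At the 5% limit, which leaves few CF-KI nuclei, these were Tfrc (-0.093) and Trf (-0.77) in endothelial-like, Ftl1 in endocardial-like (-0.60), Fth1 in lymphatic endothelial-like (-0.60) and Cp in macrophage-like nuclei (-0.15). With free RNA subtracted they were Cp in fibroblast-like (0.21), Ftl1 in endocardial-like (-0.0023) and Ftl1 and Fth1 in adipocyte-like nuclei (-0.098 and -0.10), and under the first naming rule Cp in fibroblast-like nuclei (0.10). Endothelial-like nuclei had no value with separate clustering, as their CF-KI cluster had no name. No paired analysis was possible because each group has 1 library. At these depths a member needs at least 3 UMIs in a class to be told from 0.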
